A study of Mus musculus with 12 samples.

Results

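The receptors of feeding and fluid-balance hormones described here are 10 genes, Adcyap1r1, Npy1r, Glp1r, Npy5r, Mc3r, Mc4r, Avpr1a, Oxtr, Ghsr and Lepr, taken by symbol from a table of 23256 genes with no filter on level. Where a gene had more than 1 transcript row, the row with the highest mean over the 12 libraries stands for it. The values come from the paraventricular nucleus (PVN) of adult male mice, 18 to 20 weeks old, hybrids of strain C57/Bl6:129S6/SvEvTac. In the miR group (6 animals, replicates 1 to 6) the zygote had been microinjected with a mix of 9 microRNA mimics in DPBS, each at 0.11 ng/uL and the mix at 1 ng/uL. The mimics were of miR-30a, miR-30c and miR-29c, of miR-204 and miR-32, of miR-532-3p and miR-193-5p, and of miR-698 and miR-375. In the PBS group (6 animals, replicates 7 to 12) it had received DPBS alone. Embryos of both groups were carried by surrogate CD1 dams, and all animals were weaned into same-sex group housing with free access to food. The mimics were given once, at the zygote stage, and shared litters are not given in the labels, so p-values measure the spread between these animals whatever their litters. Each library is polyadenylated RNA from 1.0 mm punches of 2 brain slices of 300 µm, a piece of tissue that also takes in cells around the nucleus.

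The PVN receives signals on energy stores and body water and answers through its endocrine and autonomic neurons. Melanocortin peptides made in the arcuate nucleus activate Mc4r and Mc3r, and agouti-related peptide from neighbouring arcuate neurons opposes them. Neuropeptide Y from the same neurons acts on Npy1r and Npy5r and promotes feeding. Ghrelin from the stomach acts on Ghsr, leptin from fat on Lepr and glucagon-like peptide 1 on Glp1r. Oxytocin and vasopressin, the magnocellular hormones of the PVN itself, act on Oxtr and Avpr1a, and the neuropeptide PACAP acts on Adcyap1r1. All members but Lepr, a cytokine receptor, are receptors coupled to G proteins.

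The scale is RPKM, read counts divided by transcript length and by library depth, on which the levels of genes can be set side by side. The libraries held 22.8M to 45.1M reads in miR and 27.6M to 38.1M reads in PBS (M, mega), as worked out from the step sizes of very low values. The tissue label was checked against PVN markers. Oxt, which encodes oxytocin, ran from 1290 to 3750 RPKM in miR libraries and from 1630 to 3980 RPKM in PBS. All 10 genes of the PVN list averaged at least 1 RPKM. So did all 10 genes of a list for the thalamus and zona incerta, and 57.1% of all genes. That count therefore does not tell these regions apart. Peptide genes of other hypothalamic regions stood out in single libraries of both groups. Pmch, which encodes melanin-concentrating hormone of the lateral hypothalamus, measured 67.9 RPKM in miR replicate 2 and 0.867 to 3.74 RPKM in the other 11 libraries. Vip, a peptide gene of the suprachiasmatic nucleus, measured 21.7 RPKM in miR replicate 5 and 0.0431 to 0.833 RPKM elsewhere. Npy, a peptide gene of the arcuate nucleus, measured 20.1 RPKM in PBS replicate 10 and 4.79 to 9.12 RPKM elsewhere. The thalamic marker Tcf7l2 ran from 2.53 to 40.2 RPKM in miR libraries and from 4.19 to 28.1 RPKM in PBS. PBS replicates 8, 9, 10 and 12 stood apart by nuclear-retained RNAs, with Meg3 at 158 to 316 RPKM against 49.9 to 68.1 RPKM in the miR libraries and 50.6 and 58.0 RPKM in PBS replicates 7 and 11. With the PVN markers as a covariate 7 receptors had a higher value in miR and 0 were called in limma, as without it; the fit with the nuclear-retained RNAs is given with the comparison. The part of Pmch, Vip, Npy and Tcf7l2 in the receptor values was not tested.

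The sequences of the injected microRNAs are shown first because their seeds, bases 2 to 8 and in capitals, are what was searched for in the receptors' transcripts. The mature sequences are RefSeq's on build GRCm38, written 5′ to 3′. The labels name no arm for miR-30a, miR-30c, miR-29c, miR-204 and miR-32, and the arm usually taken as the guide strand is shown for these. miR-193-5p, miR-375 and miR-698 were not analysed here.
mmu-miR-29c-3p: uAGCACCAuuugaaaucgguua
mmu-miR-30a-5p: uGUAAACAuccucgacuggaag
mmu-miR-30c-5p: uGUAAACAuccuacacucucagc
mmu-miR-32-5p: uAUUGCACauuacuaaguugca
mmu-miR-204-5p: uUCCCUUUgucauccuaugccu
mmu-miR-532-3p: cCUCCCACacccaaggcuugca
miR-30a and miR-30c share a seed, so the 6 sequences hold 5 seeds. At least 1 exact match to the reverse complement of a seed was found in the 3′ UTR of 7 of the 10 receptors. The same held for 39.1% of the 17615 3′ UTRs of genes in the table that had one in GENCODE M21. UTR length differs widely, with a median of 823 bases over all. Lepr (83) and Npy5r (774) lie below it, and all other receptors above it, from 1092 for Avpr1a to 4359 for Glp1r. A longer UTR has more room for a match, and the counts were not adjusted for length. Adcyap1r1 and Glp1r matched 3 seeds each, Mc4r and Oxtr 2, Ghsr, Mc3r and Lepr 1, and Npy1r, Npy5r and Avpr1a none of these 5. By seed, miR-29c matched 3 receptors (12.2% of all 3′ UTRs), miR-30 matched 2 (12.8%), miR-204 matched 3 (13.5%), miR-532-3p matched 5 (12.6%) and miR-32 matched none (6.04%).

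All matches of Glp1r, Adcyap1r1, Oxtr and Ghsr, the 4 receptors with the longest UTRs, are shown so that the letters can be read against the seeds above. Capitals mark the 7 bases that pair with the seed, the position is that of the first such base in the UTR, and sequences come from GENCODE M21 transcripts on the sense strand.
Adcyap1r1 with miR-29c, position 627: cagagaaagttcTGGTGCTtttcctgtg
Adcyap1r1 with miR-204, position 2660: cctggacccagaAAAGGGAaaacgataa
Adcyap1r1 with miR-532-3p, position 4119: ccaggctcccttGTGGGAGctggaccgg
Glp1r with miR-532-3p, position 55: tggccatcccagGTGGGAGagatcctgg
Glp1r with miR-532-3p, position 1948: ctaggcaacccaGTGGGAGctttaatgt
Glp1r with miR-30, position 2232: aattccactagcTGTTTACatgcctccg
Glp1r with miR-204, position 2790: cttgtgtgaccaAAAGGGAatactaaag
Oxtr with miR-29c, position 417: gcagacgcagagTGGTGCTaatttcctt
Oxtr with miR-30, position 2952: cattttccagccTGTTTACaatccatgt
Ghsr with miR-532-3p, position 2826: ctgggatgcagaGTGGGAGcctatctca
A match is a run of letters and not a measured site. The rows of Glp1r and Oxtr in the deposited table span shorter regions than the GENCODE models, so whether their reads covered these positions is not given.

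The receptors fell into 4 tiers of level. Adcyap1r1 averaged 83.7 ± 5.5 RPKM (SD, n = 12), at the 97.7th percentile of all genes. Npy1r at 7.21 ± 0.829 and Glp1r at 6.04 ± 0.977 RPKM came next. Npy5r, Mc3r, Mc4r, Avpr1a, Oxtr and Ghsr averaged 2.35, 1.99, 1.87, 1.55, 1.24 and 1.24 RPKM, and Lepr 0.376 ± 0.126 RPKM. Thus 9 of the 10 reached a mean of 1 RPKM, as did 57.1% of all genes in the table. Within a library, Adcyap1r1 was 11.7-fold above Npy1r, Glp1r 2.56-fold above Npy5r, and Ghsr 3.38-fold above Lepr, each in 12 of 12 libraries. These 3 steps had an exact sign-flip permutation p = 0.000488, the smallest 12 libraries can give, and 0.00146 after adjustment over the 9 neighbouring pairs. Npy1r was 1.2-fold above Glp1r in 11 of 12 libraries (adjusted p = 0.0022, same exact permutation test). Mc3r and Mc4r did not differ beyond their spread, with a ratio of 1.08 and the order held in 8 of 12 libraries (adjusted p = 0.389, exact permutation). Nor did Oxtr and Ghsr, at a ratio of 1.01 and 6 of 12 libraries (adjusted p = 0.897, exact permutation). The remaining neighbours, Npy5r with Mc3r, Mc4r with Avpr1a, and Avpr1a with Oxtr, differed by 1.18-fold, 1.22-fold and 1.23-fold (adjusted p = 0.00527, 0.0161 and 0.0276, exact permutation). These p-values measure how repeatable an order was over the 12 libraries. The pairs and the direction of each were taken from the mean levels in these same libraries, so the p-values are a description. A bias fixed for a gene, such as one in its row length, would repeat in every library. The rows of Glp1r and Oxtr span shorter regions than the GENCODE models, and the effect on the steps beside them was not tested.

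**Figure D1:**
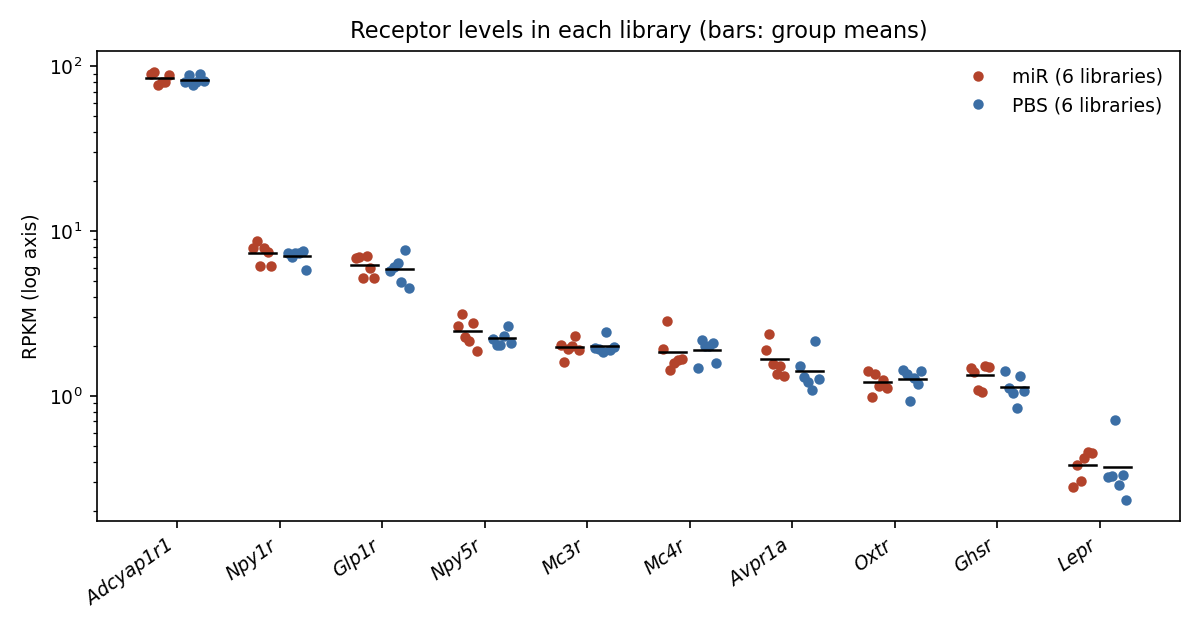
Level of each receptor in RPKM on a log axis, 1 point per library, with miR left of PBS and bars at the group means. Adcyap1r1 lies near 84 RPKM, Npy1r and Glp1r near 7 and 6, 6 receptors between about 1 and 3, and Lepr at 0.234 to 0.712 RPKM, and the groups overlap in every receptor.

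None of the 10 receptors differed between miR and PBS once all genes were taken into account. With limma on log2(RPKM + 0.5), 0 of 10 receptors and 0% of the 20476 genes tested passed an adjusted p of 0.05. At an unadjusted p under 0.05 there were 0 receptors, while 16.1% of all genes tested (3296) were under it, 6.85% with a higher and 9.24% with a lower value in miR. An exact permutation test of each gene called 0 genes, but the smallest p that 6 against 6 libraries allow is 0.002165, so that an adjusted p under 0.05 needs a large number of genes at that limit. It had 2862 genes and 0 receptors under an unadjusted p of 0.05. Groups overlapped in all 10 receptors, whereas 0.435% of all genes tested had groups that did not overlap, 0.186% higher and 0.249% lower in miR. The value was higher in miR for 7 receptors and lower for 3, beside 50% of all genes higher. This count was 10 with quantile normalization, 4 with a correction for GC content, 2 with the nuclear-retained RNAs as a covariate and 4 without PBS replicates 8, 9, 10 and 12. It was 5 without PBS replicate 12. The median log2 difference was 0.044 over the receptors and 0.0001 over all genes. Folds and intervals in the next paragraphs are miR over PBS on the log2(RPKM + 0.5) scale, which understates changes of low genes. In punches of tissue, fewer cells of a type and less RNA per cell cannot be told apart.

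**Figure D2:**
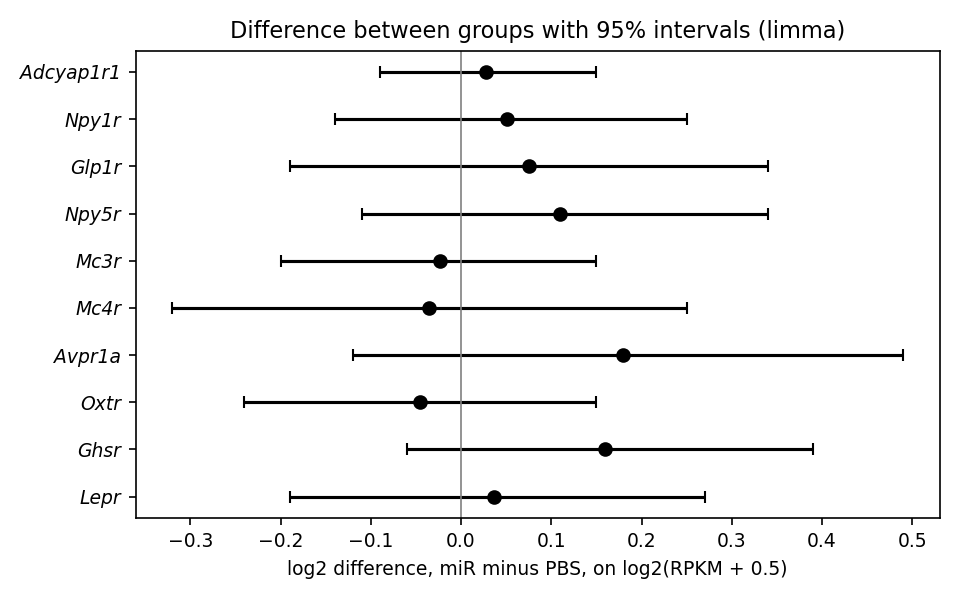
Log2 difference between miR and PBS for each receptor with its 95% interval from limma, from 6 libraries a group. All 10 intervals include 0; the narrowest, of Adcyap1r1, runs from -0.09 to 0.15 and the widest, of Avpr1a, from -0.12 to 0.49.

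The melanocortin receptors Mc4r and Mc3r had nearly equal group means. Mc4r, the receptor whose loss causes obesity in mice (chromosome 18, 67017362 to 67020126, minus strand, mm9), was lowest at 1.43, median 1.66 and highest at 2.83 RPKM in miR. PBS animals were lowest at 1.47, median 2.001 and highest at 2.17 RPKM. The highest value was that of miR replicate 2, the library with the high Pmch, and 1 of 6 miR libraries lay above the PBS median. The fold was 0.976, with an interval from 0.803 to 1.19 (adjusted p = 0.918 in limma). Leaving out miR replicate 2 gave a log2 difference of -0.14 instead of -0.035 (unadjusted p = 0.18 in limma). Mc3r, the second brain melanocortin receptor (chromosome 2, 172073992 to 172076614, plus strand), was lowest at 1.61, median 1.96 and highest at 2.32 RPKM in miR. The PBS libraries had it lowest at 1.86, median 1.94 and highest at 2.43 RPKM. Its lowest value of the 12 was in the same miR replicate 2. The fold was 0.984 (interval 0.872 to 1.11, adjusted p = 0.912 in limma). Both genes have a single exon, and their values rest on medians of 155 and 152 reads per library.

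The neuropeptide Y receptors had slightly higher means in miR, within the spread, and this direction turned for both with GC correction (log2 difference -0.049 for Npy1r and -0.007 for Npy5r) and with the nuclear-retained RNAs as covariate (-0.053 and -0.023). Npy1r (chromosome 8, 69221321 to 69230697, plus strand), the receptor first cloned for neuropeptide Y, was lowest at 6.13, median 7.65 and highest at 8.65 RPKM in miR. The PBS values were lowest at 5.78, median 7.32 and highest at 7.58 RPKM. PBS replicate 12 alone lay below all miR libraries, and miR replicates 1, 2 and 4 lay above all PBS libraries. The fold was 1.04 (interval 0.906 to 1.19, adjusted p = 0.805 in limma). Npy5r (chromosome 8, 69203864 to 69211993, minus strand), known as a feeding receptor, was lowest at 1.87, median 2.46 and highest at 3.15 RPKM in miR. In PBS it was lowest at 2.05, median 2.16 and highest at 2.67 RPKM. Both the lowest and the highest library were miR animals, replicates 6 and 2. The fold was 1.08 (interval 0.924 to 1.26, adjusted p = 0.62 in limma).

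Npy1r and Npy5r are neighbours on opposite strands, with 9328 bases between their starts in mm9. After subtraction of group means their log2 values had a Pearson correlation of 0.68 over the 12 libraries, a description of libraries that share punch content and depth. Each correlated more closely with a member on another chromosome, Npy1r with Glp1r and Npy5r with Avpr1a, at 0.79 each. The promoters of Npy1r and Npy5r, 250 bases before to 50 after the start, are printed from RefSeq (GRCm38) because the genes are neighbours. Capitals mark any match, on either strand, to the TATA box (letters TATAAA), the CCAAT box (letters CCAAT), the cyclic AMP response element (letters TGACGTCA), the GC box (letters GGGCGG), the E-box (letters CACGTG) or the STAT element (letters TTCNNNGAA).
Npy1r, chr8:66697172-66697471, plus strand: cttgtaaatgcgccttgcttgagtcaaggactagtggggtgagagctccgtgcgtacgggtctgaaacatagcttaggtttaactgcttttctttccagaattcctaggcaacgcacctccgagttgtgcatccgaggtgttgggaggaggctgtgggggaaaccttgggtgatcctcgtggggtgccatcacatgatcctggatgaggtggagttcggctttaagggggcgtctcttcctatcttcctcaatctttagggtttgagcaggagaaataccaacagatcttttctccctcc
Npy5r, chr8:66688045-66688344, minus strand: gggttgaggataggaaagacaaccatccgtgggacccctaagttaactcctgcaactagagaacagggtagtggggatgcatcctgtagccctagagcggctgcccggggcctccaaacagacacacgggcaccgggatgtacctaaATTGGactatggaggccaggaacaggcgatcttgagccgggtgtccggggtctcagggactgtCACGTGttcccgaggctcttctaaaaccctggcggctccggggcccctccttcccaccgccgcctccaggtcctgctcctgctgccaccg
The Npy1r window held none of the 6 motifs. The Npy5r window held a CCAAT box, which 37.4% of 32851 promoters have, and an E-box, which 7.15% have. The shares were 13.6% for the TATA box, 1.79% for the cyclic AMP response element, 35.7% for the GC box and 8.3% for the STAT element. GC content was 51.7% for Npy1r and 61.7% for Npy5r. A match is a description of these letters alone.

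Of the receptors for hormones from the gut and fat, Ghsr had the smallest p of the 10. Ghsr, the ghrelin receptor (chromosome 3, 27270273 to 27276932, plus strand), was lowest at 1.05, median 1.44 and highest at 1.52 RPKM in miR. The PBS libraries had it lowest at 0.850, median 1.10 and highest at 1.42 RPKM. Replicates 1, 5 and 6 of miR lay above all PBS libraries, and replicate 10 of PBS below all others. The fold was 1.12 (interval 0.960 to 1.31), with an unadjusted p = 0.135 and adjusted p = 0.449 in limma. The log2 difference of 0.16 was 0.266 without PBS replicates 7 and 11 (unadjusted p = 0.0234, adjusted p = 0.107 in limma) and -0.041 without PBS replicates 8, 9, 10 and 12. It was 0.222 with array weights (unadjusted p = 0.0403, adjusted p = 0.17 in limma) and 0.003 with the nuclear-retained RNAs as covariate. Glp1r, which encodes the glucagon-like peptide 1 receptor (chromosome 17, 31038812 to 31073455, plus strand), was lowest at 5.18, median 6.39 and highest at 7.02 RPKM in miR. The PBS values were lowest at 4.51, median 5.90 and highest at 7.68 RPKM, so the PBS group spanned the miR group. The fold was 1.05 (interval 0.879 to 1.26, adjusted p = 0.784 in limma).

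Lepr, the leptin receptor, was the lowest member. The table lists 3 of its transcripts, all from position 101390012 of chromosome 4 on the plus strand, which share exons and therefore reads. The row of highest mean ends at 101487959 and codes for 1162 residues in GENCODE M21, the long form that carries the full signalling tail. In this row Lepr was lowest at 0.282, median 0.402 and highest at 0.455 RPKM in miR. PBS animals were lowest at 0.234, median 0.324 and highest at 0.712 RPKM. PBS replicate 9 was alone at the top; the other 5 PBS libraries lay between 0.234 and 0.333 RPKM. The fold was 1.03 (interval 0.875 to 1.2, adjusted p = 0.891 in limma). Without PBS replicate 9 the log2 difference was 0.136 instead of 0.037 (unadjusted p = 0.0496 in limma, before adjustment). The row that ends at 101464863 and codes for 892 residues averaged 0.354 ± 0.0778 RPKM in miR animals and 0.368 ± 0.178 RPKM in PBS animals (SD, n = 6 each). The row that ends at 101486272 and codes for 894 residues averaged 0.254 ± 0.0560 RPKM in miR animals and 0.267 ± 0.102 RPKM in PBS animals. The long row rests on 29.9 to 91.4 reads per library. Its spread over all 12 libraries of 33.5% was above the 15% that counting of the median number of reads gives. That spread includes the high PBS replicate 9, and the spread without it was not worked out.

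Of the receptors for the magnocellular hormones, Avpr1a varied more than Oxtr. Avpr1a, the V1a vasopressin receptor (chromosome 10, 121885555 to 121890509, plus strand), was lowest at 1.33, median 1.55 and highest at 2.39 RPKM in miR. In PBS it was lowest at 1.08, median 1.28 and highest at 2.15 RPKM. The 2 high libraries, miR replicate 2 and PBS replicate 11, came from different groups, and the PBS median lay below all 6 miR libraries. The fold was 1.13 (interval 0.919 to 1.40, adjusted p = 0.542 in limma). Without PBS replicates 7 and 11 the log2 difference was 0.326 (unadjusted p = 0.0277, adjusted p = 0.119 in limma), and without PBS replicates 8, 9, 10 and 12 it was -0.106. Oxtr, the oxytocin receptor (chromosome 6, 112423678 to 112439802, minus strand), was lowest at 0.979, median 1.197 and highest at 1.42 RPKM in miR. The PBS values were lowest at 0.930, median 1.32 and highest at 1.44 RPKM. The 2 lowest libraries were miR replicate 2 and PBS replicate 9. The fold was 0.969 (interval 0.846 to 1.11, adjusted p = 0.832 in limma).

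Adcyap1r1, the PACAP receptor PAC1 (chromosome 6, 55401974 to 55451449, plus strand), was the most abundant and the most even member. It was lowest at 76.5, median 84.3 and highest at 92.1 RPKM in miR. PBS animals were lowest at 76.6, median 81.1 and highest at 90.1 RPKM. The ranges of the groups nearly coincided. The fold was 1.02 (interval 0.938 to 1.11, adjusted p = 0.828 in limma), and the spread over all libraries was 6.57%.

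The table holds 2 rows for Adcyap1r1 that differ by 1 exon of 84 bases, all of it coding, which adds 28 residues. This exon is the hop cassette, which lies in the third intracellular loop of the receptor, the loop that meets G proteins. It is printed here, 5′ to 3′, from the GENCODE M21 transcript (GRCm38, chr6:55491227-55491310, plus strand), because the 2 rows differ by it.
Adcyap1r1 exon: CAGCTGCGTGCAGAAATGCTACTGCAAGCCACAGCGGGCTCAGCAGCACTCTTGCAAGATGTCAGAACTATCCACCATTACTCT
RPKM times length is proportional to reads. The reads on the exon were therefore taken as the difference between the rows, with a model length of 6157 bases without the exon. How reads across exon junctions were assigned was not stated. That assignment alone could change the density, which is therefore not a measure of how often the exon is included. The density of reads on the exon was lowest at 1.90% and highest at 5.49% of that of the gene in miR. The PBS libraries had it lowest at 0.869% and highest at 7.18%. The means were 4.02 ± 1.19% in miR and 4.02 ± 2.19% in PBS (SD, n = 6 each), a difference of 0.00575 percentage points (exact permutation p = 0.998). With a model length of 6107 bases the means were 4.79% in miR and 4.79% in PBS. In each of the 12 libraries the density worked out in this way was a small fraction of that on the gene.

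**Figure D3:**
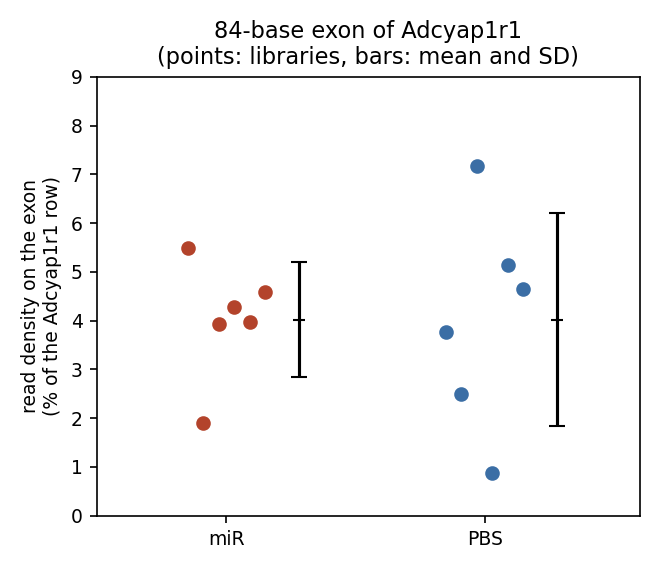
Density of reads on the 84-base exon of Adcyap1r1, worked out from its 2 rows, as a percentage of the density over the gene. Each point is 1 library, with miR left of PBS and the mean and SD beside. Every library lies below 8%, and the PBS libraries (0.869% to 7.18%) spread more widely than the miR libraries (1.90% to 5.49%).

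Several receptors were high or low in the same libraries. MiR replicate 2 had the highest value of the 12 for 5 members, Mc4r, Npy1r, Npy5r, Avpr1a and Adcyap1r1, and the lowest for Mc3r. MiR replicates 1 and 2 were each in the top 3 for 6 members and PBS replicate 11 for 5. PBS replicate 9 was in the bottom 3 for 6 members and PBS replicate 12 for 5. The same counts over all genes were not worked out, so a shift of whole libraries cannot be told apart. PBS replicate 11 also had the highest Otp (38.0 RPKM) and Sim1 (11.3 RPKM), transcription factors that mark PVN neurons. MiR replicate 2 was at 18.7 RPKM for Otp and 9.74 RPKM for Sim1, and miR replicate 1 at 32.6 and 9.51 RPKM. Of the libraries low for many receptors, PBS replicate 9 was at 30.8 RPKM for Otp and 8.86 RPKM for Sim1. PBS replicate 12 was at 18.1 and 6.05 RPKM. The part of PVN content in the receptor ranks was not tested. Across the 12 libraries, with group means subtracted, the closest pairs of members were Npy1r with Glp1r and Npy5r with Avpr1a, each with a Pearson correlation of 0.79. Lepr and Oxtr were most opposed, at -0.80. These correlations describe libraries that share punch content, depth and library preparation.

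**Figure D4:**
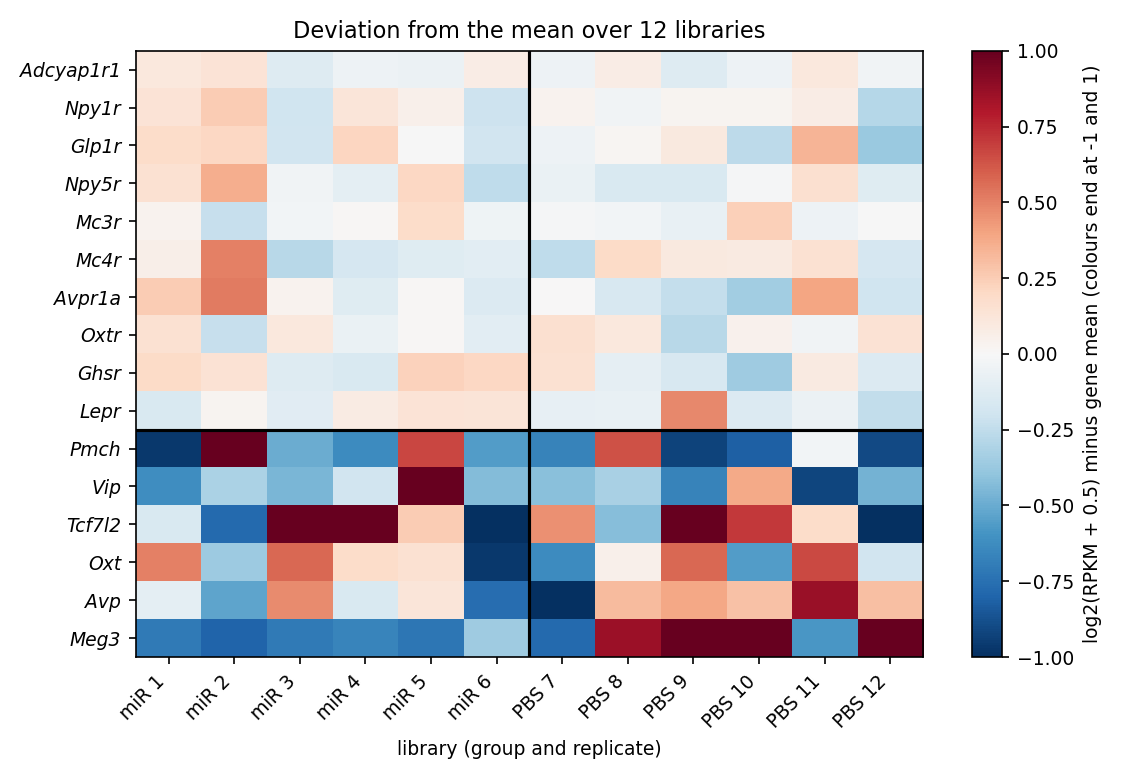
Deviation of log2(RPKM + 0.5) from the mean over 12 libraries, with miR libraries left of PBS libraries, receptors above the line and markers of other regions, Oxt, Avp and Meg3 below it. The column of miR replicate 2 is red for Mc4r, Npy1r, Npy5r, Avpr1a and Pmch, and Lepr is red in PBS replicate 9.

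For the 9 receptors above 1 RPKM, the 2 genes of most similar pattern among 13273 genes were named by the highest Pearson correlation over the 12 libraries with group means subtracted. They were Hccs (0.98) and Phf6 (0.95) for Ghsr, Robo1 (0.96) and Glra1 (0.92) for Npy1r, and Disp2 (0.95) and Wdr59 (0.92) for Mc4r. For Avpr1a they were Bend4 (0.94) and Arfip1 (0.91), for Glp1r Zfp324 (0.93) and Gpc6 (0.93), and for Adcyap1r1 Zfp54 (0.93) and Rnf144b (0.91). For Npy5r they were Smc1a (0.91) and 4930412C18Rik (0.89), for Oxtr Psmg1 (0.90) and Arpc1b (0.89), and for Mc3r Dym (0.83) and Cecr6 (0.81). These are the highest of many values over few libraries.

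The ligand genes of these receptors were listed together with Cartpt, Gal, Cck and Nts, peptide genes that are not among their ligands. Levels in the punches differed widely. Of the 15 listed genes 11 averaged at least 1 RPKM, and 0 passed an adjusted p of 0.05 in limma. Of the 14 tested, 6 were higher and 8 lower in miR. Adcyap1, which encodes PACAP, measured 21.9 ± 1.90 RPKM in miR animals and 20.0 ± 2.80 RPKM in PBS animals (SD, n = 6 each), below the level of its receptor in every library. Oxt and Avp lay far above their receptors: Avp ran from 505 to 1190 RPKM in miR libraries and from 372 to 1560 RPKM in PBS. Genes of arcuate peptides were lower. Npy measured 6.63 ± 1.37 RPKM in miR animals and 8.73 ± 5.69 RPKM in PBS animals, and Pomc, the melanocortin precursor, 1.92 ± 0.551 RPKM in miR animals and 2.08 ± 0.343 RPKM in PBS animals. Agrp, the melanocortin antagonist, had the smallest p of the list at 0.319 ± 0.0673 RPKM in miR animals and 0.544 ± 0.186 RPKM in PBS animals (unadjusted p = 0.0111, adjusted p = 0.239 in limma). Agrp was 0.717, 0.677, 0.670 and 0.577 RPKM in PBS replicates 8, 9, 10 and 12 and 0.287 and 0.339 RPKM in PBS replicates 7 and 11, against 0.215 to 0.385 RPKM in miR. Cartpt and Gal averaged 28.0 and 28.2 RPKM in miR, and 28.8 and 29.4 RPKM in PBS. Cck, the cholecystokinin gene, ran from 3.16 to 39.0 RPKM in miR libraries and from 8.16 to 60.4 RPKM in PBS libraries. Nts, the neurotensin gene, averaged 4.62 RPKM in miR animals and 3.88 RPKM in PBS animals, and Pyy, the peptide YY gene, was listed at 0 in all libraries. Ghrl, the ghrelin gene, averaged 2.62 RPKM in miR animals and 2.69 RPKM in PBS animals. Gcg and Lep, the precursors of glucagon-like peptide 1 and leptin, averaged 0.0112 and 0.00451 RPKM in miR animals and 0 and 0.00145 RPKM in PBS.

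Relatives and signalling partners of the receptors were described by their counts, to be read beside all genes tested, of which 50% were higher in miR, 6.85% were higher with an unadjusted p under 0.05 in limma and 9.24% lower with one. Of 10 relatives and partners of the melanocortin and neuropeptide Y receptors only 4 averaged at least 1 RPKM. The rest were lower, down to Mc1r at 0.0115 RPKM over all libraries. In all, 8 of the 10 were higher in miR and 2 lower, and 0 had an unadjusted p under 0.05 in limma. The smallest p-values were those of the neuropeptide Y family receptor gene Ppyr1 (0.352 RPKM in miR animals and 0.256 RPKM in PBS animals, adjusted p = 0.312 in limma) and of Mrap, a melanocortin receptor accessory protein gene (0.0190 RPKM in miR animals and 0.0577 RPKM in PBS animals, adjusted p = 0.369 in limma). The list of 17 relatives and partners of the peptide hormone and vasopressin receptors had 10 that averaged at least 1 RPKM. Of the 17, 5 were higher and 12 lower, with 1 and 3 at an unadjusted p under 0.05 in limma. Among them Gipr, the receptor gene for the gut hormone GIP, averaged 0.117 RPKM in miR animals and 0.204 RPKM in PBS animals, and Ramp2, a receptor partner gene active in vessels, 5.62 RPKM in miR animals and 6.97 RPKM in PBS animals. Their adjusted p-values in limma were 0.236 and 0.255. Of 35 other feeding and fluid receptors 19 were higher and 16 lower, with 0 and 2 at an unadjusted p under 0.05 in limma. The natriuretic peptide receptor genes Npr2 (15.6 ± 1.02 RPKM in miR animals and 18.8 ± 2.49 RPKM in PBS animals, SD, n = 6 each) and Npr1 (0.406 RPKM in miR animals and 0.519 RPKM in PBS animals) had the smallest p, with adjusted p = 0.236 and 0.268 in limma. Npr2 was 19.3 to 21.2 RPKM in PBS replicates 8, 9, 10 and 12, the libraries high in nuclear-retained RNAs, and 15 and 16.5 RPKM in PBS replicates 7 and 11, within the miR range of 14.4 to 17.2 RPKM.

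Among 32 genes of G proteins and cyclic AMP signalling 19 were higher and 13 lower in miR, with 6 and 2 at an unadjusted p under 0.05 in limma. Arrb2, a gene for an arrestin that ends receptor signalling, averaged 18.9 RPKM in miR animals and 22.7 RPKM in PBS animals, and Plcb1, a phospholipase C gene, 14.7 RPKM in miR animals and 13.3 RPKM in PBS animals (adjusted p = 0.266 and 0.268 in limma). Among 19 genes of leptin receptor signalling 15 were higher and 4 lower, with 2 and 2 under an unadjusted p of 0.05 in limma. Socs3, the feedback inhibitor of the leptin receptor, averaged 0.892 ± 0.158 RPKM in miR animals and 1.21 ± 0.276 RPKM in PBS animals (SD, n = 6 each), and the adaptor gene Sh2b1 averaged 16.1 RPKM in miR animals and 18.3 RPKM in PBS animals (adjusted p = 0.263 and 0.27 in limma). Arrb2 and Sh2b1 showed the split seen for Npr2. Arrb2 was 16.6 to 20.9 RPKM in miR, 22.4 to 26.4 RPKM in PBS replicates 8, 9, 10 and 12, and 19.2 and 17.8 RPKM in PBS replicates 7 and 11. Sh2b1 was 13.5 to 17.3 RPKM in miR, 18.1 to 19.8 RPKM in PBS replicates 8, 9, 10 and 12, and 16.4 and 16.1 RPKM in PBS replicates 7 and 11. In none of these lists did a gene pass an adjusted p of 0.05 in limma, as was the case for all 20476 genes tested. Over the lists the median log2 difference ran from -0.057 to 0.075. Markers of other cells also differed in direction: all 8 endothelial and mural markers were lower in miR, with a summed level of 32.0 to 43.2 RPKM in miR animals and 37.5 to 46.7 RPKM in PBS. All 8 astrocyte markers were higher, with sums of 617 to 685 RPKM in miR animals and 514 to 659 RPKM in PBS. The astrocyte sum was 570, 521, 514 and 548 RPKM in PBS replicates 8, 9, 10 and 12. In PBS replicates 7 and 11 it was 659 and 634 RPKM, within the miR range. Of the other lists of cell markers, the choroid and meningeal one had 7 of 8 genes lower in miR. Higher in miR were 6 of 7 oligodendrocyte, 4 of 6 microglial, 5 of 8 neuronal and 4 of 8 tanycyte and ependymal genes. The part of these markers in the values above was not tested.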

How the data were processed

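Poly-A libraries made from 250 ng of RNA with a stranded kit were sequenced as single-end reads on 2 HiSeq2000 lanes, per the labels' protocols and the series design. The deposited table, made by the authors, gives RPKM for 30399 transcript rows in 12 libraries. Build mm9 and edgeR are named in the submitters' processing notes without a role; no aligner or counter is named in these sources. Of 913 rows without a symbol 868 were named by RefSeq accession (GRCm38.p6 table). Depth came from the lowest RPKM values of 733 single-exon olfactory receptor genes, which fall on a step per lane: the 2 steps, set from some of these values, gave sums within 1% of each of the 243 low values. Read numbers are given only where the row's span and the GENCODE M21 model agree within 10 bases; they cover counting error only, and reads were not counted by molecular identifiers.

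The fit used limma 3.58.1 in R 4.3.3 (variance trend, no covariate, 2-sided, 6 against 6) on log2(RPKM + 0.5) for the 20476 genes above 0 in any library, without a filter on level, with Benjamini-Hochberg adjustment over all of them. A gene was called at an adjusted p under 0.05. Exact permutations used 924 labelings. A script check on simulated data passed. Tables used pandas 2.3.3, and figures matplotlib 3.10.9. All members, every gene listed with the ligands and the 2 genes of smallest p of each other list were to be named. The marker genes named for the punches, Agrp's per-library values and Otp and Sim1 were chosen after their values were seen. The members and lists were chosen with earlier results of these data known. A comparison of the receptor proteins was not analysed here. The alternatives tried are in the closing section.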

Additional observations from a re-analysis of the deposited data

Results flagged for a closer look

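In groups of 6 libraries a value was singled out when its gap to the nearest other library, as a share of the group's range, exceeded Dixon's 95% critical value. Over 22 groups (the 10 receptors and the 84-base exon in miR and in PBS) 4 values were, where chance gives about 1 in 20 groups. Mc4r was 2.83 RPKM in miR replicate 2, against 1.43 to 1.94 RPKM in the other 5 miR libraries; this library also had the high Pmch. Mc3r was 2.43 RPKM in PBS replicate 10, against 1.86 to 1.97 RPKM in the other PBS libraries; Npy was also highest there, at 20.1 RPKM. Npy1r was 5.78 RPKM in PBS replicate 12, against 6.99 to 7.58 RPKM in the others. Lepr was 0.712 RPKM in PBS replicate 9, against 0.234 to 0.333 RPKM in the others. Its other 2 transcript rows were highest in the same library, but they share reads with this row and are not separate support. Causes were not tested.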

How the results depend on the processing

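No receptor passed an adjusted p of 0.05 under any of the alternatives run with limma or the exact permutation. Directions turned as follows, in log2 units, and the cause was not tested. With quantile normalization Mc4r was 0.008, Mc3r 0.023 and Oxtr 0.009. Without PBS replicates 8, 9, 10 and 12 together Mc4r was 0.035, Mc3r 0.022, Npy1r -0.030, Ghsr -0.041, Glp1r -0.104, Avpr1a -0.106 and Adcyap1r1 -0.014. With the nuclear-retained RNAs as covariate Npy1r was -0.053, Npy5r -0.023, Glp1r -0.081, Avpr1a -0.084 and Adcyap1r1 -0.027. With GC correction Npy1r was -0.049, Npy5r -0.007 and Lepr -0.036. With 1 library left out, Mc4r ran from -0.140 to 0.017, Mc3r from -0.063 to 0.022, Npy1r from -0.001 to 0.099 and Lepr from -0.008 to 0.136. The number of receptors higher in miR was 4 without PBS replicates 8, 9, 10 and 12, 2 with the nuclear covariate and 4 with GC correction, and ran from 5 to 8 with 1 library left out. The number at an unadjusted p under 0.05 was 1 with array weights, 2 without PBS replicates 7 and 11, and 0 to 1 with 1 library left out. Over all genes limma called 1063 with array weights, 3039 without PBS replicates 7 and 11, 3 without PBS replicates 8, 9, 10 and 12, and 0 to 332 with 1 library left out, 332 without PBS replicate 7. Summed over rows that share reads, Lepr averaged 0.997 and Adcyap1r1 166.4 RPKM, by construction. The difference on the 84-base exon ran from -0.6237 to 0.6381 percentage points with 1 library left out; this and the second model length were chosen after seeing the data. No paired analysis was possible because the replicate numbers of the groups do not overlap. Of the 7 receptors with read numbers Lepr rests on the fewest. With 6 libraries a group differences may have been missed, and the smallest detectable difference was not worked out. The intervals given are not adjusted for the number of genes and are not detection limits.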
